A study of Mus musculus with 8 samples.

Results

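Carbonic anhydrases convert carbon dioxide and water into bicarbonate and a proton, and back. The isozymes differ in place: some are cytosolic, others lie in mitochondria or in the plasma membrane with the active site outside the cell, and the carbonic anhydrase-related proteins have lost catalysis. In fat, bicarbonate is the substrate of the carboxylases that feed lipid synthesis and amino acid breakdown, and the cytosolic isozyme encoded by Car3 is known as a very abundant protein of rodent adipocytes.

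Here 10 genes of the family, Car2, Car3, Car4, Car5b, Car7, Car8, Car9, Car12, Car13 and Car14, are described out of 23360 genes with a value in inguinal white adipose tissue, a subcutaneous fat depot at the groin. They were the listed family genes, each read from its RefSeq accession, with the row of the highest total where a symbol had several. The list was chosen by family membership with the knockout and control values of these libraries already known, so the values of this contrast are given as a description and without p-values.

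The 4 knockout libraries came from mice carrying floxed Lsd1 alleles and Adipoq-Cre, a transgene active in adipocytes, and the 4 control libraries from floxed Lsd1 mice; all mice were 6 weeks old. Kdm1a encodes Lsd1, a histone demethylase. Mice with Adipoq-Cre and intact Lsd1 were not part of the comparison, so the transgene and the loss of Lsd1 cannot be told apart, and cells of the pad other than adipocytes keep the gene. The labels do not say that each library came from a separate mouse, so p-values measure the spread between these libraries, which may be technical.

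Values are the authors' deposited scaled read counts. Log2 fold changes, knockout over control, were taken after adding 1 to each value, so changes of low genes are understated, and come from a limma fit over all 14591 genes that reached 10 in at least 4 libraries. The libraries held 25671837 to 32442724 recovered reads. Kdm1a averaged 568 ± 15.4 in knockout and 729 ± 51.1 in control libraries (SD, n = 4 each; log2 fold change -0.36, limma adjusted p = 0.0498), a call that did not survive the removal of any single library (adjusted p 0.0579 to 0.152). The 8 adipocyte markers were all measured, with a summed value of 306629 to 340535 in knockout and 417992 to 531351 in control libraries.

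The promoters of the 2 members whose knockout libraries all lay below the controls and that RefSeq lists in its promoter set, Car5b and Car4, are shown first, since the description turns on these genes. Each is the 250 bases before the annotated transcription start in GRCm38.p6, read 5′ to 3′ on the gene's strand, at chrX:164028011-164028260 (minus strand) for Car5b and chr11:84957504-84957753 (plus strand) for Car4. Capitals mark GGCGTGGC, searched on both strands.
Car5b: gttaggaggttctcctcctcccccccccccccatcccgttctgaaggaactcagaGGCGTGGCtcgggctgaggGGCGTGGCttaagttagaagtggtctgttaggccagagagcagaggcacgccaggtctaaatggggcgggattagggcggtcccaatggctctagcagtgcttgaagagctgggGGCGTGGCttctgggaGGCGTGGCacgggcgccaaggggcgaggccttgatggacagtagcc
Car4: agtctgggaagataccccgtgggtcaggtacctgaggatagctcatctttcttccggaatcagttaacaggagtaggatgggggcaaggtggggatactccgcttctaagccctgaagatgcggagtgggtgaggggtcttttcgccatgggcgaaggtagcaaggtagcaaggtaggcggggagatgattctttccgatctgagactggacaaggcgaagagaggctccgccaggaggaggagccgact
The Car5b window held 4 copies of GGCGTGGC, beginning 195, 176, 62 and 46 bases before the start, and 2 copies of the GC box GGGCGG. The motif was chosen after the sequence had been read. Of 32851 mouse promoter windows of the same length, 3.72% held GGCGTGGC at least once and 0.0122% held at least 4 copies. The Car4 window held neither GGCGTGGC nor GGGCGG, which 32.7% of windows held.

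Of the 10 members 6 were in the promoter set, and Car2, Car3, Car8 and Car13 were not. ACGTG, a form of the core that hypoxia-inducible factors bind, was in 16.6% of all windows on either strand. It occurred once each in those of Car9, 18 bases before the start, and Car14, 7 bases before it. The other form, GCGTG, is part of GGCGTGGC and was not counted over the windows. TATAAA, in 12.4% of all windows, was in none of the 8 windows of the 6 members.

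Car5b, the mitochondrial carbonic anhydrase, was at 0.503 times its control level in the knockout pads by the fitted fold change. It measured 2405, 2121, 2198 and 2140 in knockout replicates 1 to 4, against 4863, 4126, 4145 and 4510 in control replicates 1 to 4. All 4 knockout libraries lay far below every control, and the spread within each group was small beside the gap. The means were 2216 ± 130 in knockout and 4411 ± 349 in control libraries (SD, n = 4 each), with a log2 fold change of -0.99 (SE 0.081). By deposited value Car5b ranked 944 to 1168 among all genes in knockout and 328 to 433 in control libraries. The gene (NM_181315) lies on chromosome X from 163976822 to 164028010 in GRCm38.p6, and no other annotated gene of GENCODE M21 overlapped it.

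Car5b was the only 1 of the 9 members passing the low-value filter that met the threshold of limma adjusted p under 0.05, as 1.64% of all tested genes did (239 of 14591, of which 187, or 1.28% of those tested, were higher and 52, or 0.356%, lower). It met it in each fit that left out 1 library and without control replicates 1 and 2 together (log2 fold change -0.97). The sample numbers of those controls, 518 and 517, lie apart from 356 to 361 of the others. As the members were listed with these values known, the calls of members here and below are descriptions and no test. With knockout replicate 3 alone against the 4 controls, where the lone library is assumed to vary like the rest, the log2 fold change was -1.001 and the threshold was missed.

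**Figure D1:**
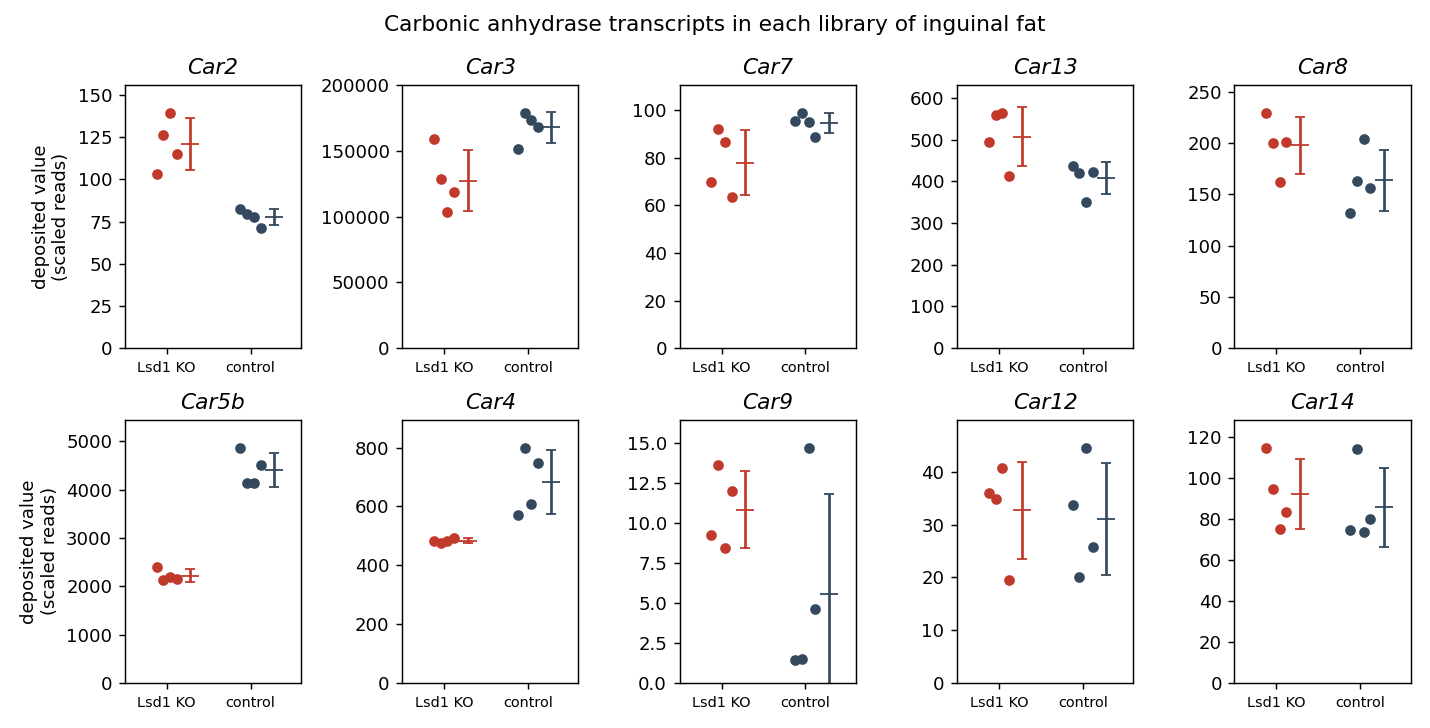
Deposited values (scaled reads, linear axes from 0) of the 10 members in each library, knockout left and control right, with the mean and SD beside the points (the lower SD bar of Car9 controls is cut at 0). The knockout points of Car5b and Car4 lie below every control point and those of Car2 above every control point; the groups of the other 7 genes overlap.

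Car3 was by far the most abundant member. This cytosolic isozyme has low hydratase activity and is best known from adipocytes, slow skeletal muscle and liver. It measured 159277, 128493, 103798 and 118725 in knockout replicates 1 to 4, against 151554, 178869, 173698 and 168673 in control replicates 1 to 4. Knockout replicate 1 lay above the lowest control, so the groups overlapped, while the other 3 knockout libraries lay below every control. The means were 127573 ± 23449 in knockout and 168199 ± 11851 in control libraries, with a log2 fold change of -0.41 (SE 0.21), and the threshold was met only with DESeq2. Car3 ranked 4 to 5 among all genes in knockout and 3 to 4 in control libraries and took 0.904 ± 0.174% of a knockout and 1.18 ± 0.0890% of a control library's total.

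The spread of Car3 was wider in knockout than in control libraries, with coefficients of variation of 18.4% and 7.05%, where counting error alone would give 0.200% and 0.172%. Skeletal muscle RNA also varied between these libraries. The 11 muscle markers with a matched row summed to 175393, 166549, 11419 and 102756 in knockout replicates 1 to 4. In the controls they summed to 7853 to 34046. Their mean log2 level differed by 1.83 (exact two-sided permutation p = 0.114 over 70 assignments), with none at 0 in any library. With the muscle level as a covariate the Car3 log2 fold change was -0.60, and with knockout replicate 3 alone, the muscle-poor knockout library, it was -0.69. The muscle level of knockout replicates 1, 2 and 4 was above every control, so this covariate is partly tied to genotype. The part of muscle RNA in the Car3 values was not tested.

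General adipocyte transcripts were lower too, with a mean log2 level of the 8 markers that differed by -0.42 (exact two-sided permutation p = 0.0286, the smallest that 4 against 4 allows) and with 1 of the 8 past the threshold. The part of this shift in the Car3 and Car5b values was not tested. In bulk tissue fewer cells of a type and less RNA per cell cannot be told apart.

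Car2, the cytosolic isozyme of high activity known from red cells, kidney and osteoclasts, was higher in the knockout pads. It measured 103, 126, 139 and 115 in knockout replicates 1 to 4, against 82.5, 79.6, 77.9 and 71.2 in control replicates 1 to 4. The lowest knockout library lay above the highest control. The means were 121 ± 15.5 in knockout and 77.8 ± 4.80 in control libraries, with a log2 fold change of 0.62 (SE 0.13). Car2 missed the threshold in the whole-table fit and met it with values scaled to equal library totals, with DESeq2 on recovered reads, and without knockout replicate 1. The 8 erythroid markers with a matched row summed to 9150 to 15133 in knockout and 7071 to 13573 in control libraries, ranges that overlap, with 3 of the 8 at 0 in at least 1 library.

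The groups did not overlap for 3 of the 9 tested members, Car2, Car4 and Car5b, as for 8.65% of all tested genes.

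Car13, a further cytosolic isozyme, measured 495, 559, 564 and 412 in knockout replicates 1 to 4, against 437, 420, 352 and 422 in control replicates 1 to 4. Knockout replicates 1 to 3 lay above every control and knockout replicate 4 fell among them (log2 fold change 0.31, SE 0.12). Car7, a cytosolic isozyme known from brain and muscle, measured 69.8, 92.0, 86.7 and 63.4 in knockout replicates 1 to 4, against 95.7, 98.8, 95.0 and 88.7 in control replicates 1 to 4. Its knockout libraries spread more widely than its controls, and knockout replicate 2 lay above the lowest control (log2 fold change -0.29, SE 0.15). With the muscle level as a covariate these log2 fold changes were 0.46 for Car13 and -0.17 for Car7.

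Car8, a carbonic anhydrase-related protein without catalysis that is known from Purkinje cells, where it binds the inositol trisphosphate receptor, measured 229, 200, 161 and 201 in knockout replicates 1 to 4 and 131, 163, 204 and 156 in control replicates 1 to 4. The groups overlapped (log2 fold change 0.28, SE 0.16; 0.18 without control replicate 1). With the muscle level as a covariate the log2 fold change was 0.053, and with knockout replicate 3 alone it was -0.00018.

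Among the isozymes of the cell surface, Car4 was lower in the knockout pads. It is anchored by glycosylphosphatidylinositol and known from capillary endothelium, lung, kidney and muscle. It measured 484, 474, 482 and 494 in knockout replicates 1 to 4, against 572, 799, 610 and 748 in control replicates 1 to 4. The knockout libraries sat close together below every control, with a coefficient of variation of 1.72% against 15.96% in the controls, where counting error gives 3.23% and 2.70%. The means were 484 ± 8.33 in knockout and 682 ± 109 in control libraries, with a log2 fold change of -0.48 (SE 0.11). The threshold was met only with DESeq2 among the tools and settings tried. The 8 endothelial markers summed to 13233 to 15824 in knockout and 15548 to 17957 in control libraries and all had negative log2 fold changes, with none past the threshold. Their mean log2 level differed by -0.18 (exact two-sided permutation p = 0.0571), and their part in the Car4 values was not tested.

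The transmembrane isozymes Car14, Car12 and Car9 were low, and their groups overlapped. Car14 measured 115, 94.7, 75.2 and 83.4 in knockout replicates 1 to 4 and 74.7, 114, 73.5 and 79.9 in control replicates 1 to 4 (log2 fold change 0.11, SE 0.19). Its log2 fold change was -0.063 with the muscle covariate and -0.16 with knockout replicate 3 alone, and 445 bases of its exons are shared with exons of Aph1a on the opposite strand, where reads cannot be assigned unless strand was used. Car12, known from kidney, colon and hypoxic tumours, measured 36.0, 34.8, 40.7 and 19.5 in knockout replicates 1 to 4 and 33.7, 20.2, 44.6 and 25.8 in control replicates 1 to 4 (log2 fold change 0.08, SE 0.30), with log2 fold changes from -0.10 to 0.44 over the alternatives. No direction could be read for either gene at this spread.

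Car9, the hypoxia-induced isozyme, had at least 10 scaled reads in 3 of 8 libraries and so stayed outside the fit. It measured 9.27, 13.6, 8.40 and 11.98 in knockout replicates 1 to 4 and 1.46, 1.47, 14.7 and 4.64 in control replicates 1 to 4. The highest and the lowest value both came from controls. The group sums were 85 recovered reads in knockout and 45 in control libraries, and 214 exon bases are shared with the antisense gene Gm12454, so Car9 is at the edge of what this depth can measure.

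**Figure D2:**
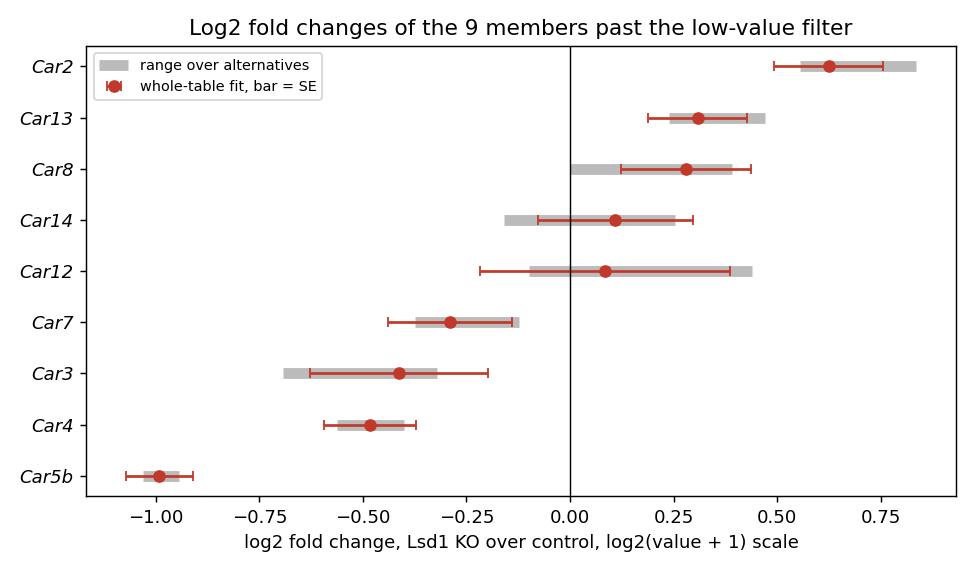
Log2 fold changes of the 9 members past the low-value filter, knockout over control, with their SE (red) and the lowest to highest value over the alternative settings and left-out libraries (grey). Car5b lies at -0.99 with a narrow range, Car2 at 0.62, and the ranges of Car14, Car12 and Car8 reach or cross 0.

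Per kilobase of transcript the members spanned several orders of magnitude. The mean level per kb was 75982 ± 13966 in knockout and 100178 ± 7059 in control libraries for Car3, then 645 ± 37.8 and 1284 ± 102 for Car5b. Car4 followed at 385 ± 6.63 in knockout and 543 ± 86.7 in control libraries, and Car13 at 221 ± 30.8 and 177 ± 16.6. Each of these 4 genes stood apart from the next in every library of either genotype.

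Car7, Car14, Car2 and Car8 formed a middle group whose neighbours in the control order overlapped, at 61.5 ± 2.74, 50.04 ± 11.2, 43.5 ± 2.68 and 42.4 ± 7.80 per kb in control libraries. In knockout libraries the highest mean of these 4 was that of Car2, at 67.7 ± 8.65 per kb, and the lowest that of Car7, at 50.7 ± 8.81. Car12, at 8.81 ± 2.48 per kb in knockout and 8.35 ± 2.85 in control libraries, and Car9, at 5.34 ± 1.19 and 2.75 ± 3.10, came last and overlapped. Lengths were those of the annotated transcripts, and the levels assume that reads were counted over them.

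**Figure D3:**
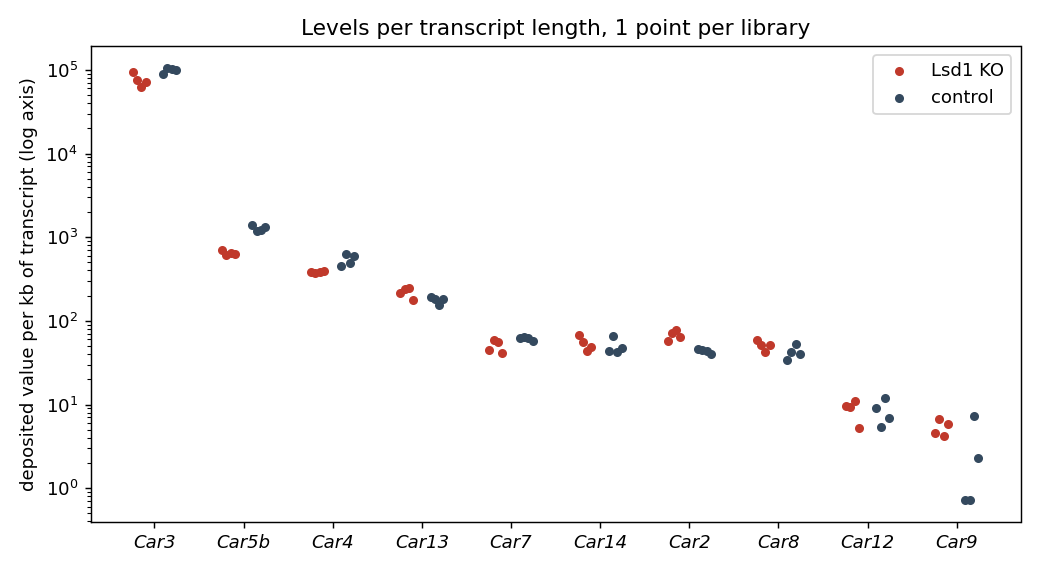
Deposited value per kilobase of transcript (log axis) of each member, 1 point per library, knockout left of control, in order of the control mean. Car3 stands far above Car5b, and the control means of Car7, Car14, Car2 and Car8 lie between 42.4 and 61.5 per kb, with Car7 above Car2 in every control library.

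Car3 made up 97.1 ± 0.444% of the summed deposited value of the 10 members in knockout and 96.6 ± 0.399% in control libraries, shares whose ranges overlap. Without Car3 the other 9 members summed to 3739 ± 166 in knockout and 5959 ± 299 in control libraries. Car5b held 59.3 ± 1.78% of that sum in knockout and 74.0 ± 2.63% in control libraries, the largest single part of it in either genotype.

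Car13, Car1, Car3 and Car2 lie within 259 kb of chromosome 3, from 14641727 to 14900770 in GRCm38.p6, and their values did not shift in 1 direction. The end of Car3 and the start of Car2 lie 13.9 kb apart, and Car3 had a log2 fold change of -0.41 and Car2 of 0.62. Car1, a cytosolic isozyme of red cells and colon outside the 10 members, was at 13.4 ± 5.15 in knockout and 20.6 ± 5.42 in control libraries (log2 fold change -0.62, SE 0.34, limma adjusted p = 0.445; -0.37 without knockout replicate 2). Of the 2 genes with a value before the cluster, E2f5 had a log2 fold change of 0.25 (limma adjusted p = 0.372) and Rbis of 0.04 (limma adjusted p = 0.945). Both genes after it, A930001A20Rik and Gm9733, were below the filter.

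**Figure D4:**
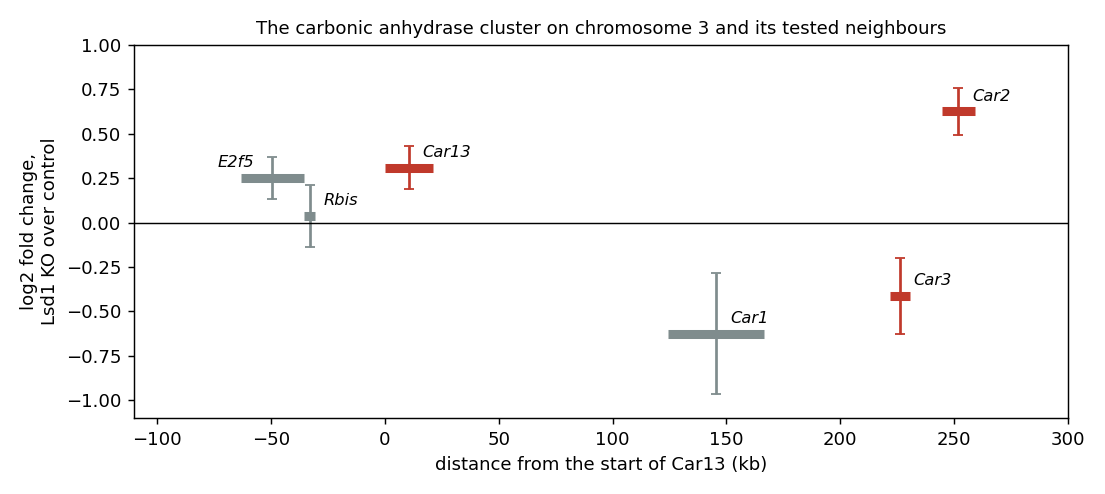
Log2 fold changes, knockout over control, with SE, of the carbonic anhydrase cluster on chromosome 3 and the 2 tested genes before it, against distance in kb from the start of Car13; bar length is the annotated gene. Car13 and Car2 (red) lie above 0 and Car3 between them below 0, while Car1 (grey) has a wide SE.

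Of the other 6 mouse carbonic anhydrase genes 3 passed the filter and none met the threshold. Car11, a related protein without catalysis, measured 173, 170, 176 and 212 in knockout replicates 1 to 4, against 143, 179, 89.1 and 108 in control replicates 1 to 4. Control replicate 2 lay above 3 of the 4 knockout libraries, and the fitted log2 fold change of Car11 was 0.53 (SE 0.20, limma adjusted p = 0.270). Leaving out both control replicates 1 and 2 gave 0.89. Car15 had a log2 fold change of 0.13 (SE 0.28, adjusted p = 0.876), and Car5a, the other mitochondrial isozyme, Car6, which is secreted into saliva, and Car10 were at 0 to 7.37 in every library.

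Around the family, 9 lists of genes for bicarbonate and proton handling held 49 tested genes, the 3 above included, and none met the threshold with limma or with edgeR, while 5 did with DESeq2. At an unadjusted limma p under 0.05 there were 16 of 49, where 14.5% of all tested genes were. The lists were chosen with earlier results of these data known, so the counts and p-values of list genes are descriptions and no test. The enzymes that consume bicarbonate were mostly at negative values: 7 of 8 tested were below 0, and the list median of -0.39 compares with 0.02 over all genes. The 8 adipocyte markers were all below 0 too, with a median log2 fold change of -0.33 and a mean log2 level that differed by -0.42. The part of this adipocyte shift in the values of the list was not tested. Pcx, pyruvate carboxylase, had the largest difference, at 19837 ± 3754 in knockout and 27756 ± 6104 in control libraries (log2 fold change -0.48, SE 0.18, limma adjusted p = 0.275). The knockout and control libraries of Pcx overlapped, and with the muscle covariate the log2 fold change was -0.19 (adjusted p = 0.635).

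Both subunits of propionyl-CoA carboxylase and of methylcrotonyl-CoA carboxylase, mitochondrial enzymes of branched-chain amino acid breakdown, had knockout libraries below every control. These 4 were picked after their values were seen. Groups did not overlap, in either direction, for 8 of the 49 tested genes of the 9 lists and for 8.65% of all tested genes. Mccc1 measured 2155, 2086, 2015 and 1737 in knockout replicates 1 to 4, against 2533, 3103, 2572 and 2585 in control replicates 1 to 4. Its log2 fold change was -0.43 (limma adjusted p = 0.0638), and those of Pcca, Pccb and Mccc2 were -0.39, -0.39 and -0.22 (adjusted p 0.0848, 0.183 and 0.230). DESeq2 called Mccc1 and Pcca lower (adjusted p = 0.00338 and 0.0111). Acaca, the cytosolic acetyl-CoA carboxylase of lipid synthesis, had the list's one positive value (0.19, limma adjusted p = 0.796).

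Among monocarboxylate transporters Slc16a3, the lactate exporter of glycolytic cells and fast muscle, measured 341, 310, 88.9 and 219 in knockout replicates 1 to 4, against 91.3, 82.1, 109 and 61.4 in control replicates 1 to 4. Knockout replicate 3 lay among the controls, and it was also the knockout library with little muscle RNA. The log2 fold change was 1.33 (SE 0.38, limma adjusted p = 0.139), and the threshold was met when knockout replicate 3 was left out (1.75, adjusted p = 0.00551) or with DESeq2 (1.46, adjusted p = 0.00118). With the muscle level as a covariate the Slc16a3 log2 fold change was 0.39 (adjusted p = 0.351). As this covariate is partly tied to genotype, the part of muscle RNA in the Slc16a3 values was not tested. Among sodium-proton exchangers Slc9a2 had a log2 fold change of 0.87 (SE 0.24, limma adjusted p = 0.130), and DESeq2 called it higher (adjusted p = 0.0384).

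The bicarbonate transporter lists held no gene past the threshold. Slc4a4, a sodium-bicarbonate cotransporter, had the largest difference of its list (log2 fold change -0.53, SE 0.39, limma adjusted p = 0.582). This value was -0.16 without control replicate 2, -0.25 without knockout replicate 3, -0.042 without control replicates 1 and 2 together and -1.15 with the muscle covariate. Slc26a2, a sulphate transporter, had the largest of the 4 tested Slc26 anion exchangers, all below 0 (log2 fold change -0.49, SE 0.16, adjusted p = 0.193; -0.74 with the muscle covariate). Ptprg, a receptor phosphatase with a carbonic anhydrase-like domain, was at 0.06 (SE 0.10, adjusted p = 0.824), and Adcy10, the bicarbonate-sensing adenylyl cyclase, at -0.59 (SE 0.32, adjusted p = 0.455). The Adcy10 log2 fold change was -0.27 without control replicate 1, -0.24 without control replicates 1 and 2 together and -0.24 with the muscle covariate.

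Genes induced by hypoxia, the signal to which Car9 and Car12 respond in other tissues, lay on both sides of 0. Of 14 tested 8 were above and 6 below 0, around a median log2 fold change of 0.09. Egln3, a prolyl hydroxylase that marks hypoxia-inducible factors for degradation, had the largest difference (0.63, SE 0.19, limma adjusted p = 0.168).

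**Figure D5:**
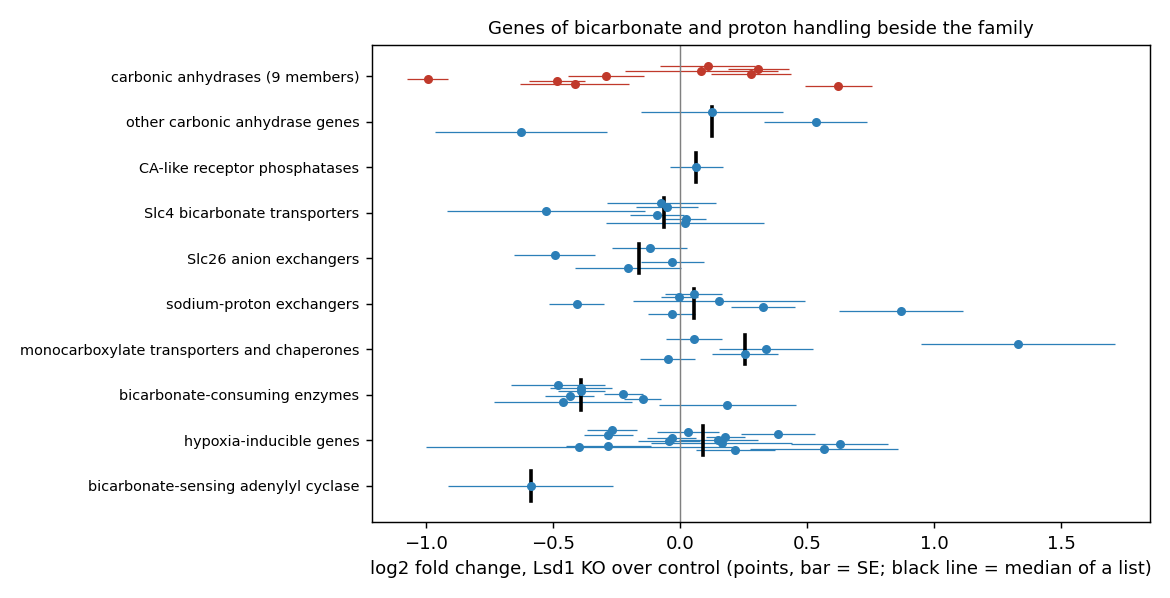
Log2 fold changes, knockout over control, with SE, of the 9 tested members (red, top) and of each list of bicarbonate and proton handling genes (blue), with the list median as a black line. The bicarbonate-consuming enzymes have the median -0.39, and Slc16a3 is the point at 1.33.

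Genes outside the family whose centred log2 values over the 8 libraries lay nearest to those of Car5b included Cidec, Nos3, Lrp11 and Esyt3, with root-mean-square differences of 0.11 to 0.18 on the log2 scale. In each of these 4 the knockout libraries lay below every control, as in Car5b. The genes were chosen for nearness to Car5b over these same libraries, so this separation adds no support. Cidec, a lipid droplet protein that helps droplets grow, was nearest, at 14834 ± 1632 in knockout and 29815 ± 1363 in control libraries. Cidec is also among the 8 adipocyte markers above. Nos3, the endothelial nitric oxide synthase, was at 710 ± 18.5 in knockout and 1159 ± 82.8 in control libraries.

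For Car3 the nearest were Papss2, Firre, Tecpr1, Sort1 and Tspan2, with root-mean-square differences of 0.071 to 0.083. Papss2, which makes the sulphate donor of sulphation reactions, measured 827, 579, 495 and 594 in knockout replicates 1 to 4, against 771, 867, 915 and 876 in control replicates 1 to 4. As in Car3, knockout replicate 1 lay above the lowest control and the other 3 below all controls. These are likenesses over libraries that share their preparation and their cell makeup, and the genes were chosen for them.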

How the data were processed

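RNA of inguinal fat was measured in 8 libraries, 4 knockout and 4 control, grouped by the genotype label. The authors aligned reads to mm10 with TopHat version 2, counted them with HOMER, and tested genes with edgeR and DESeq (1.8.3), per the submitters' processing notes and the design text. The release of HOMER, its annotation, strand setting and scaling are not stated in the sources used here. The deposited values are a signal: in each library 99.9 to 100% of values above 0 were whole multiples of 1 step (0.442 to 0.545, tolerance 0.02), that is, read counts times 1 factor per library. Even multiples made up 54.0 to 56.2% of those up to 40, so a step may be 1 end of a read pair, and counting error is then larger than the recovered reads imply.

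Of 23373 rows, 1 without an accession, at 0 throughout, was left out. Symbols came from RefSeq GRCm38.p6 (22527 accessions) and GENCODE M21 (124), and 721 kept their accession. The fit was limma 3.58.1 (R 4.3.3) with a mean-variance trend and genotype as the only term on log2(value + 1), with Benjamini-Hochberg adjustment over all 14591 genes; the pseudocount was 1. It was tested on simulated data. The edgeR (4.0.16) and DESeq2 (1.42.0) tests on recovered reads were alternatives, run on the same genes. Other alternatives were pseudocounts of 0.5 and 5, no filter or one at 50, 3 scalings, summed rows of a symbol, a muscle covariate and left-out libraries; knockout replicate 3 alone was added after the data were seen. Marker levels were compared by exact permutation (scipy 1.17.1).

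The members and lists were chosen with earlier results of these data known. Named genes were all members, the other family genes, list genes past the threshold or else the one with the largest change, the 5 genes nearest to the most abundant and to the most changed member, and 2 neighbours on each side of the cluster; an item that this rule covers is not reported here. Among the list genes, Pcca, Pccb, Mccc1, Mccc2 and Acaca were named beyond this rule. Of the listed markers 4 had no matched row and were not used here.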

Additional observations from a re-analysis of the deposited data

Results flagged for a closer look

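In 42 groups of 4 libraries checked, 1 library stood apart from the other 3 in 3 of them, where chance gives about 1 in 20. Car14 was at 114 in control replicate 2 and at 73.5 to 79.9 in the other controls. Slc4a4 was at 1241 in the same library and at 402 to 522 in the other controls. The mean log2 level of the skeletal muscle markers was 8.71 in knockout replicate 3 and 11.7 to 12.1 in the other knockout libraries.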

How the results depend on the processing

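No paired analysis was made because the labels do not pair knockout with control libraries. The number of members past the threshold, 1 in the whole-table limma fit, was 2 with library total scaling (Car2 and Car5b), 4 with DESeq2 (Car2, Car3, Car4 and Car5b), 0 with knockout replicate 3 alone, and 1 to 2 with 1 library left out. The count over all genes, 239, was 776 with DESeq2, 97 without control replicates 1 and 2 together, 19 with knockout replicate 3 alone, and 87 to 449 with 1 library left out (135 without control replicate 1, 138 without control replicate 4, 101 without knockout replicate 2, 449 without knockout replicate 3 and 87 without knockout replicate 4). Pathway genes past the threshold numbered 5 with DESeq2, and 0 to 1 with 1 library left out. The cause of these differences was not tested, except that fewer libraries entered some fits. Of the members, Car2, Car3, Car4, Car5b, Car7 and Car13 kept their direction in all 21 alternatives; the sign turned in 1 for Car8, 3 for Car14 and 3 of 20 for Car12, which the filter at 50 removed. Among list genes Ptprg, at -0.00031 to 0.15 with 1 library left out, turned without control replicate 1, without control replicates 1 and 2 together (-0.014) and with the muscle covariate (-0.098), and Car15, at -0.012 to 0.34 with 1 library left out, turned without control replicate 1 and without control replicates 1 and 2 together (-0.19). The muscle marker difference, 1.83 on the log2 scale, was 1.501 to 2.64 with 1 library left out, where no exact p can fall below 0.0571. The Car3 share of the family, 0.537 percentage points higher in knockout libraries, was 0.209 points higher on values per kb and 0.355 to 0.733 points higher with 1 library left out, lowest without control replicate 1. Depth limits Car9, with 85 recovered reads in knockout and 45 in control libraries.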
